A study of Saccharomyces cerevisiae with 32 samples.

Results

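The genes described here are 44 budding yeast genes of the general stress response, of trehalose, glycogen and glycerol metabolism and of redox defence. The rule is a list of gene symbols and uses no measured value. The list held 18 stress markers, 5 genes of trehalose, 6 of glycogen, 3 of glycerol synthesis and its glycolytic neighbourhood, and 12 redox genes. Of the 44 genes, 42 had a row in at least 1 of the 4 tables and 41 in every table, out of 5328 genes in the tables together. SIP18 and TFS1 had no row and were not analysed here. CTA1, the peroxisomal catalase, had a row in 1 table and lay under the abundance floor there (a mean abundance of at least 10 over wild type and mutant in both assays), with footprints at 2.11 and 3.63. The other 41 passed the floor in all 4 comparisons, and the values below are theirs.

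Yeast cells that meet heat, cold, osmotic or oxidative stress, or that run short of nutrients, switch on a common set of genes through the transcription factors Msn2 and Msn4, which lower protein kinase A activity lets into the nucleus. The set includes enzymes that make trehalose, a sugar that protects proteins and membranes, and glycogen, a glucose reserve. It also includes catalase, superoxide dismutases, peroxiredoxins, thioredoxins and glutaredoxins, which remove reactive oxygen species and reduce disulphides. Many of these mRNAs are short and abundant, and the amount of protein made from them depends both on mRNA level and on how often each mRNA is translated.

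Ribosome-protected RNA and mRNA were sequenced from whole cells of wild type and of mutants of the RNA helicases Ded1 and eIF4A, both of which serve translation initiation. The cold-sensitive strain ded1-cs (NSY5) was compared with wild-type DED1 (NSY4) at 15 °C, the heat-sensitive strain ded1-ts (NSY11) with wild-type DED1 (NSY10) at 37 °C, and the heat-sensitive strain tif1-ts (NSY21) with wild-type TIF1 (NSY20) at both 30 and 37 °C. Every culture grew in synthetic complete medium and was given 100 µg/ml cycloheximide for 2 min before harvest, so the controls carry this drug as well. How long the temperature shift lasted was not stated in the labels. Each of the 16 groups had 2 labelled replicates, but the tables hold 1 log2 abundance per group. No difference below therefore has a replicate check or a p-value, and higher and lower describe these libraries only. As whole cultures were used, less mRNA per cell and fewer cells with the mRNA cannot be told apart.

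Estimated depth ran from 3880000 footprint reads in tif1-ts at 37 °C to 12040000 in wild-type DED1 at 15 °C, and mRNA depth is unknown. The error that counting alone puts on a member's footprint difference was between 0.01 and 0.33 on the log2 scale. It leaves out the spread between cultures. The 4 tables were normalized separately, so a level can be compared within a table, and levels from different tables are only set side by side. DED1 mRNA was at 10.9 in wild type and 11.8 in ded1-cs, and at 12.6 in wild type and 11.82 in ded1-ts. TIF1 was not analysed here.

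The stress module differed most in mRNA in ded1-cs at 15 °C, and most in translational efficiency (TE, footprints relative to mRNA) in tif1-ts at 37 °C. In ded1-cs, 21 of the 41 mRNAs were at least 2-fold lower than in wild type, where 2.04% of all 4855 genes past the floor were, and 0 were at least 2-fold higher, against 0.844% of all genes. The median mRNA difference (log2, mutant minus wild type) was −1.16 over the members and 0.03 over all genes. At a floor of 100, which 34 members passed, the members' median was −0.62, with 16 mRNAs at least 2-fold lower. Footprints were at least 2-fold lower for 16 members and higher for 2, against 16.4% and 6.26% of all genes, with a median of −0.71 against 0.07. After subtracting the median of all genes, 18 were lower and 0 higher. TE was at least 2-fold higher for 6 members and lower for 2, against 8.63% and 17.4% of all genes. The median TE difference was 0.41, beside 0.10 over all genes, a shift of the whole table that the members' TE values at 15 °C include.

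In ded1-ts at 37 °C the members' mRNA stayed closer to wild type. At least 2-fold lower were 5 mRNAs and higher 1, against 2.58% and 2.52% of all 5238 genes, and the median was −0.08. Footprints were at least 2-fold higher for 8 members and lower for 2, against 8.57% and 6.19% of all genes. TE was at least 2-fold higher for 3 members and lower for 0, against 4.18% and 4.64%, and relative to the median of all genes 1 was higher. The median TE difference was 0.40 against 0.08 over all genes.

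The TIF1 comparisons had lower mRNA medians and higher TE medians at both temperatures. In tif1-ts at 30 °C, 1 mRNA was at least 2-fold higher and 1 lower, against 1.3% and 1.03% of 4833 genes. Footprints were at least 2-fold higher for 3 members and lower for 0, against 4.28% and 1.49%. TE was higher for 2 and lower for 0, against 2.34% and 1.14%. At a floor of 100, which 32 members passed, the higher counts were 0 for mRNA, 1 for footprints and 0 for TE. The medians were −0.42 for mRNA, −0.01 for footprints and 0.46 for TE, where all genes had a TE median of 0.04. At 37 °C, 5 mRNAs were at least 2-fold lower and 1 higher, against 3.23% and 3.79% of 4854 genes. Relative to the median of all genes 2 were higher and 4 lower, and from the rounded level columns 2 were higher and 9 lower. Footprints were at least 2-fold higher for 7 members and lower for 1, against 6.37% and 4.16%, and at a floor of 100 lower for 0. TE was at least 2-fold higher for 12 members and lower for 0, against 5.27% and 3.19%. It was above 0 for 40 of the 41, and for 2712 of all 4854 genes. Here the medians were −0.45 for mRNA, 0.29 for footprints and 0.76 for TE, beside 0.08 for the TE of all genes.

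**Figure D1:**
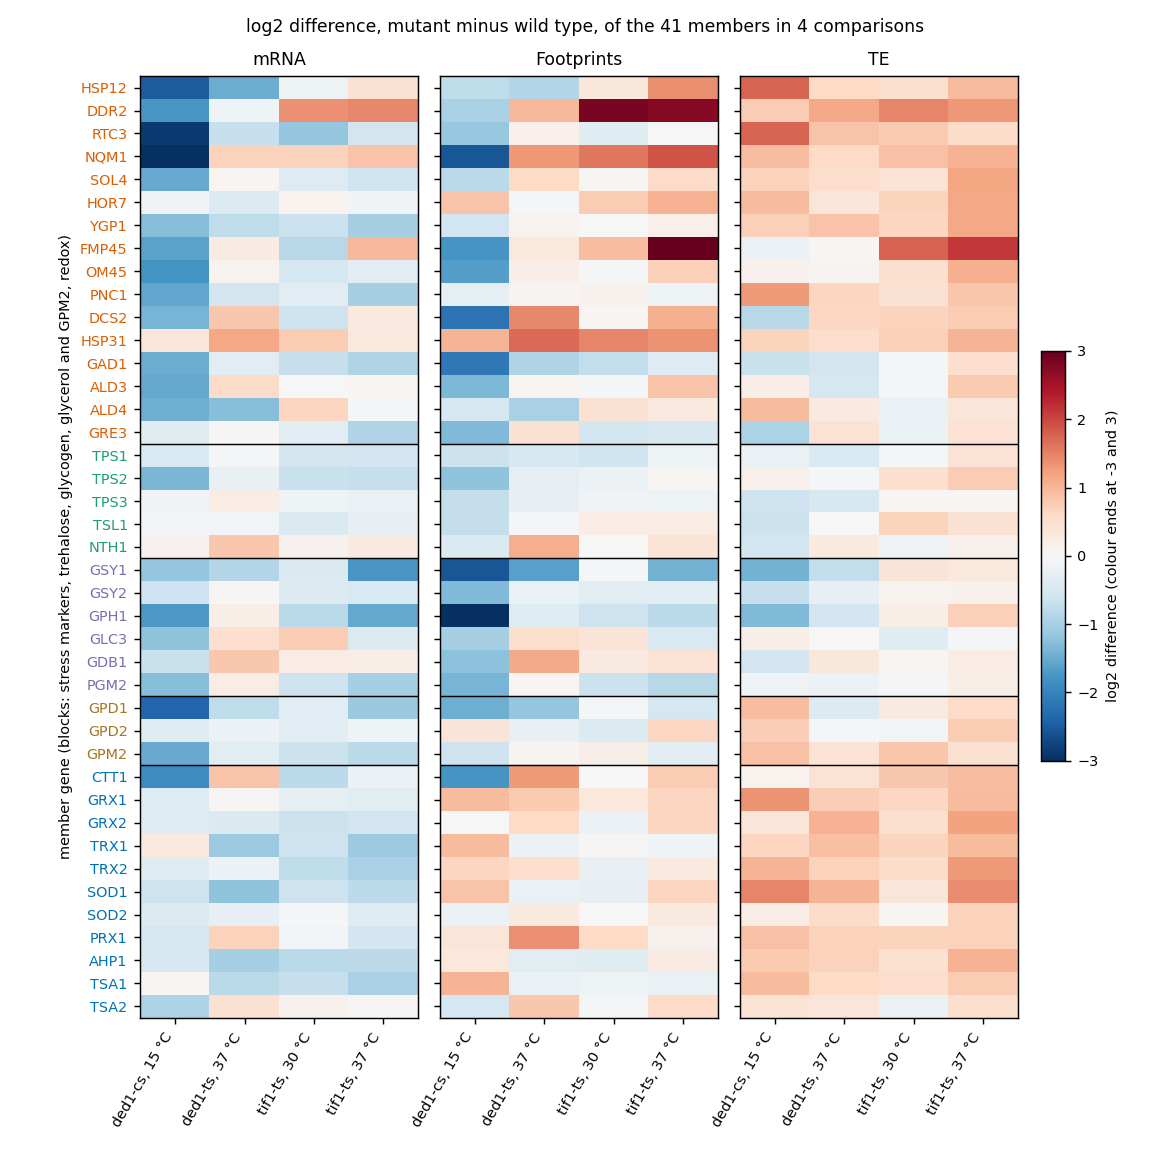
Log2 differences (mutant minus wild type) in the authors' deposited tables of the 41 members, in rows by role, for mRNA, footprints and TE in the 4 comparisons; red is higher in the mutant and blue lower, and colours end at −3 and 3. The ded1-cs mRNA column is blue for most stress markers, and the tif1-ts column at 37 °C is red for TE in 40 of 41 rows.

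The members' share of all abundance adds up the levels within each table. In wild-type DED1 at 15 °C they made up 1.78% of footprint abundance and 1.16% of mRNA abundance, and in ded1-cs 1.25% and 0.666%. In ded1-ts the footprint share was 1.61% against 1.56% in wild type, while the mRNA share was 0.839% against 0.994%. At 30 °C the footprint share was 1.22% in wild-type TIF1 and 1.32% in tif1-ts, and the mRNA share 1.21% and 1.02%. At 37 °C the footprint share was 1.68% in wild type and 2.46% in tif1-ts, with mRNA shares of 1.39% and 1.19%. In 3 of the 4 comparisons, then, the mutant had a higher share of footprints and a lower share of mRNA. Both shares were lower in ded1-cs.

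Of the 16 stress markers measured, 13 were lower by 2-fold or more in ded1-cs mRNA, against 2.04% of all genes. In footprints of tif1-ts at 37 °C, 7 were higher by that much, against 6.37% of all genes. HSP31, HOR7 and GRE3 were the markers whose ded1-cs mRNA did not reach that mark. Over all 16 markers the median mRNA difference was −1.52 in ded1-cs and −0.05 in ded1-ts. For tif1-ts it was −0.33 at 30 °C and −0.09 at 37 °C. The median TE difference of the 16 was 0.70, 0.53, 0.57 and 0.98 in the same order. At 37 °C in tif1-ts the TE difference was above 0 for all 16, from 0.36 to 2.12, and for 2712 of all 4854 genes.

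HSP12 encodes a small heat shock protein that binds membranes and is the classic reporter of the response. At 15 °C its footprints were at 11.3 in wild type and 10.53 in ded1-cs, and its mRNA at 10.6 and 8.1. The authors' deposited table lists differences of −2.51 for mRNA, −0.77 for footprints and 1.74 for TE, so footprints were lower in ded1-cs by far less than mRNA. At 37 °C in the DED1 strains its footprints were at 12.91 in wild type and 12.03 in ded1-ts, and its mRNA at 11.5 and 9.98. The differences there were −1.49 for mRNA and −0.88 for footprints in the authors' deposited table, both lower in the mutant. At 30 °C in the TIF1 strains its footprints were at 9.78 in wild type and 10.12 in tif1-ts, and its mRNA at 8.6 and 8.4. At 37 °C its footprints were at 11.48 in wild type and 12.88 in tif1-ts, and its mRNA at 10.6 and 11, and both were higher in the mutant. The TE differences of HSP12 in the authors' deposited tables were 0.61, 0.49 and 0.94 in ded1-ts and in tif1-ts at 30 and 37 °C, above 0 each time whichever way the mRNA went.

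RTC3 and NQM1, the latter a paralogue of transaldolase, had the lowest mRNA differences of all members in ded1-cs. For RTC3 at 15 °C, footprints were at 9.73 in wild type and 8.61 in ded1-cs, and its mRNA at 9.0 and 6.1. Its differences in the authors' deposited table were −2.88 for mRNA, −1.13 for footprints and 1.75 for TE, the highest TE difference of any member in that mutant. For NQM1 at 15 °C, footprints were at 9.27 in wild type and 6.71 in ded1-cs, and its mRNA at 9.1 and 5.7. NQM1 differed by −3.48 in mRNA and −2.56 in footprints in the authors' deposited table, and that mRNA difference was the lowest of all 4855 genes past the floor. The direction was the opposite in the other mutants. In ded1-ts NQM1 footprints were at 8.56 in wild type and 9.85 in ded1-ts, and its mRNA at 7.9 and 8.55. In tif1-ts at 30 °C NQM1 footprints were at 4.26 in wild type and 5.85 in tif1-ts, and its mRNA at 5.0 and 5.7. At 37 °C NQM1 footprints were at 7.02 in wild type and 8.91 in tif1-ts, and its mRNA at 6.7 and 7.6. Its footprint differences in the authors' deposited tables were 1.30, 1.59 and 1.89, with counting errors of 0.08, 0.29 and 0.08. The 30 °C value rests on about 33.6 wild-type reads.

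DDR2, a short gene induced by DNA damage and many other stresses, had the highest footprint difference of all members in tif1-ts at 30 °C. For DDR2 at 30 °C, footprints were at 6.04 in wild type and 8.89 in tif1-ts, and its mRNA at 5.4 and 6.8. At 37 °C DDR2 footprints were at 8.45 in wild type and 11.19 in tif1-ts, and its mRNA at 7.1 and 8.5. In the authors' deposited tables DDR2 footprints differed by 2.85 and 2.74, mRNA by 1.38 and 1.44 and TE by 1.46 and 1.30. It was the single member whose mRNA was at least 2-fold higher in tif1-ts, at either temperature. In ded1-ts DDR2 footprints were at 9.87 in wild type and 10.87 in ded1-ts, and its mRNA at 6.6 and 6.45, so that mRNA was nearly level and footprints were higher, and its TE difference of 1.14 in the authors' deposited table was the highest of the members there. In ded1-cs DDR2 footprints were at 7.02 in wild type and 6.04 in ded1-cs, and its mRNA at 5.8 and 4.1, both lower in the mutant.

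FMP45, a membrane protein gene of the SUR7 family, had the highest TE difference of the members in tif1-ts at both temperatures, from few reads in wild type. At 30 °C FMP45 footprints were at 4.1 in wild type and 5.03 in tif1-ts, and its mRNA at 5.3 and 4.5, with about 30.1 and 54.2 reads behind the footprint values. At 37 °C FMP45 footprints were at 5.44 in wild type and 8.53 in tif1-ts, and its mRNA at 6.3 and 7.3. TE differed by 1.76 and 2.12 in the authors' deposited tables, where the counting errors of the footprint differences are 0.33 and 0.13. In the DED1 mutants it behaved otherwise. At 15 °C FMP45 footprints were at 7.38 in wild type and 5.6 in ded1-cs, and its mRNA at 6.3 and 4.7, and at 37 °C footprints were at 7.6 in wild type and 7.91 in ded1-ts, and its mRNA at 7.3 and 7.58. The TE differences there, −0.18 and 0.05 in the authors' deposited tables, were small.

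HSP31, a chaperone and methylglyoxalase of the DJ-1 family, was the single member with footprints at least 2-fold higher in all 4 comparisons. Of all 4746 genes measured in the 4, 13 were. HSP31 lay just past that mark in ded1-cs, which 0 members reached there relative to the median of all genes. For HSP31 at 15 °C, footprints were at 8.42 in wild type and 9.43 in ded1-cs, and its mRNA at 7.4 and 7.8. In ded1-ts HSP31 footprints were at 9.95 in wild type and 11.64 in ded1-ts, and its mRNA at 9.1 and 10.21. In tif1-ts at 30 °C HSP31 footprints were at 7.94 in wild type and 9.4 in tif1-ts, and its mRNA at 7.3 and 8.0. In tif1-ts at 37 °C HSP31 footprints were at 8.59 in wild type and 9.93 in tif1-ts, and its mRNA at 7.8 and 8.1. Its footprint differences were 1.01, 1.69, 1.46 and 1.34 in the authors' deposited tables. mRNA was also higher each time, by 0.35, 1.16, 0.75 and 0.32 there.

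DCS2, a stress-induced relative of the scavenger decapping enzyme, differed between the DED1 mutants. At 15 °C DCS2 footprints were at 6.88 in wild type and 4.66 in ded1-cs, and its mRNA at 6.7 and 5.3. In ded1-ts DCS2 footprints were at 8.11 in wild type and 9.54 in ded1-ts, and its mRNA at 7.8 and 8.64. The footprint difference was −2.22 in ded1-cs and 1.44 in ded1-ts in the authors' deposited tables, with counting errors of 0.28 and 0.09. GAD1, glutamate decarboxylase, was lower in both assays in each of the 4 mutant groups, with footprint differences of −2.15, −0.89, −0.73 and −0.40 in the authors' deposited tables. GRE3, an aldose reductase, was the stress marker with the lowest TE difference in ded1-cs, −0.94 in the authors' deposited table. There its footprints were at 8.37 in wild type and 7.06 in ded1-cs, and its mRNA at 7.7 and 7.3.

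The aldehyde dehydrogenases ALD3 (cytosolic) and ALD4 (mitochondrial) each had lower mRNA in ded1-cs, −1.53 and −1.47 in the authors' deposited table. ALD4 was also among the 5 members with mRNA at least 2-fold lower in ded1-ts, where footprints were at 12.29 in wild type and 11.31 in ded1-ts, and its mRNA at 9.9 and 8.62. YGP1, a secreted glycoprotein, and HOR7, a short hyperosmotic response gene, were abundant in every group. YGP1 mRNA differed by −1.28, −0.76, −0.64 and −1.01 and its footprints by −0.57, 0.10, 0.01 and 0.14 in the authors' deposited tables. Lower YGP1 mRNA thus came with nearly level footprints in 3 of the 4 comparisons. SOL4, 6-phosphogluconolactonase, PNC1, nicotinamidase, and OM45, a protein of the outer mitochondrial membrane, each had mRNA at least 2-fold lower in ded1-cs. In tif1-ts at 37 °C their TE differences were 1.17, 0.83 and 1.06 in the authors' deposited table. HOR7 had a TE difference of 1.16 in that table, with mRNA at −0.12.

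**Figure D2:**
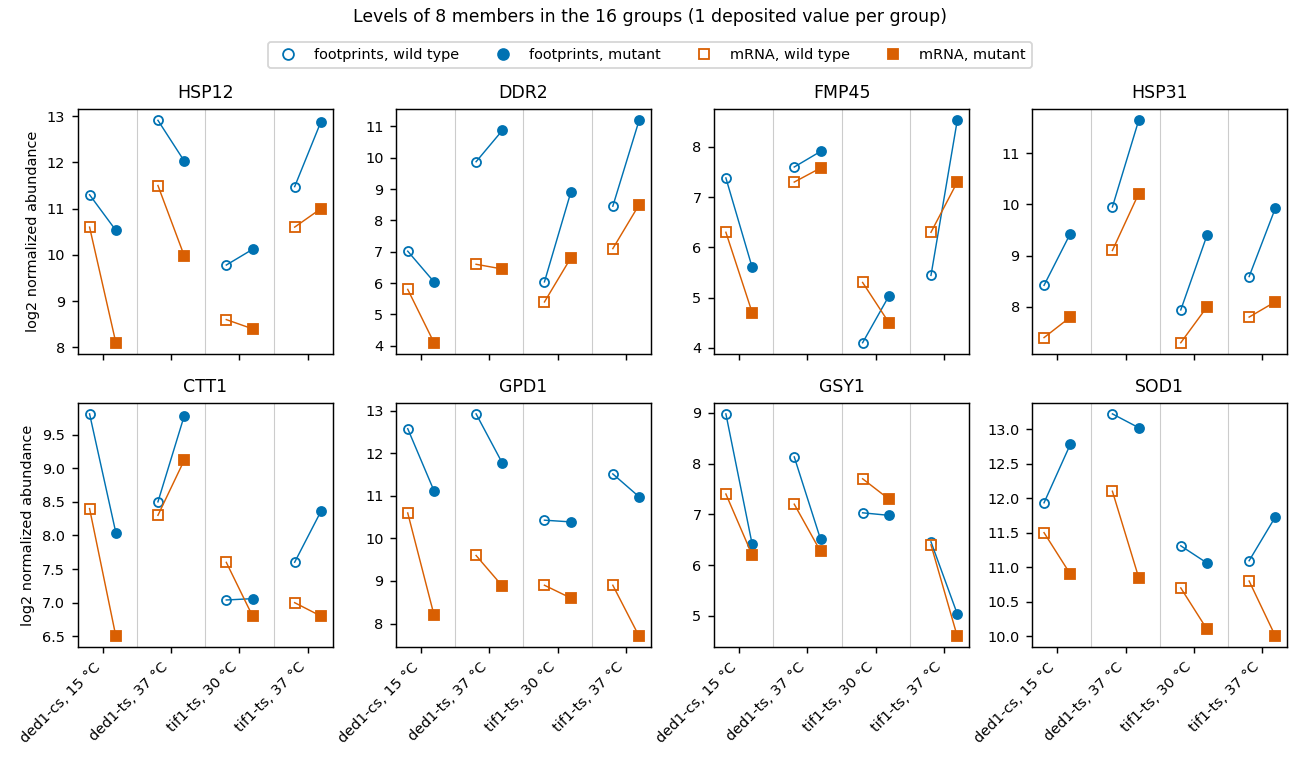
Log2 normalized abundance of 8 members, chosen for display after their values were seen, in the 16 groups: circles are footprints, squares mRNA, open symbols wild type, filled symbols the mutant, and lines join the groups of 1 table; vertical scales differ between panels and there is 1 deposited value per group. HSP31 footprints are higher in the mutant in every table, GSY1 is lower in every table, and for SOD1 mRNA is lower in each mutant while footprints are higher in ded1-cs and in tif1-ts at 37 °C.

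The other stress markers at the ends of a ranking are given here with the wild type before the mutant in each pair. RTC3 footprints stood at 9.73 and 8.61 in the ded1-cs table, 9.32 and 9.47 in the ded1-ts table, and 7.24 and 6.88 at 30 °C and 8.78 and 8.79 at 37 °C in the tif1-ts tables. RTC3 mRNA stood at 9.0 and 6.1, 6.7 and 6.04, 7.1 and 6.0, and 7.9 and 7.3 in the same order. RTC3 mRNA was lower in every mutant, and its footprints were lower in ded1-cs and, by less, in tif1-ts at 30 °C. DCS2 footprints stood at 6.88 and 4.66 in the ded1-cs table, 8.11 and 9.54 in the ded1-ts table, and 5.84 and 5.89 at 30 °C and 6.79 and 7.85 at 37 °C in the tif1-ts tables. DCS2 mRNA stood at 6.7 and 5.3, 7.8 and 8.64, 6.8 and 6.2, and 7.2 and 7.5 in the same order. DCS2 footprints in ded1-cs rest on about 29.7 reads. GAD1 footprints stood at 9.55 and 7.4 in the ded1-cs table, 10.51 and 9.62 in the ded1-ts table, and 8.39 and 7.66 at 30 °C and 9.38 and 8.98 at 37 °C in the tif1-ts tables. GAD1 mRNA stood at 8.2 and 6.7, 9.7 and 9.37, 8.4 and 7.8, and 8.7 and 7.8 in the same order. GAD1 was lower in each mutant in both assays. ALD4 footprints stood at 12.02 and 11.49 in the ded1-cs table, 12.29 and 11.31 in the ded1-ts table, and 8.97 and 9.42 at 30 °C and 10.22 and 10.52 at 37 °C in the tif1-ts tables. ALD4 mRNA stood at 10.3 and 8.8, 9.9 and 8.62, 7.3 and 7.9, and 8.1 and 8.0 in the same order. ALD4 was lower in both DED1 mutants and higher in tif1-ts footprints at both temperatures. GRE3 footprints stood at 8.37 and 7.06 in the ded1-cs table, 11.18 and 11.64 in the ded1-ts table, and 9.02 and 8.48 at 30 °C and 10.12 and 9.65 at 37 °C in the tif1-ts tables. GRE3 mRNA stood at 7.7 and 7.3, 9.8 and 9.81, 8.1 and 7.8, and 9.1 and 8.2 in the same order. GRE3 footprints were higher in ded1-ts and lower in the other mutants.

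By the median, the 5 trehalose genes had nearly level TE or lower TE in the DED1 mutants. Single genes differed, with TPS2 at 0.16 in ded1-cs and NTH1 at 0.28 in ded1-ts. The median TE difference of the 5 was −0.55 in ded1-cs and −0.04 in ded1-ts, and for tif1-ts it was 0.04 at 30 °C and 0.43 at 37 °C. Footprints were lower for all 5 in ded1-cs, from −1.21 to −0.42, and for 2255 of all 4855 genes. The synthase complex consists of TPS1, trehalose-6-phosphate synthase, TPS2, its phosphatase, and the regulatory subunits TPS3 and TSL1.

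TPS1 lay below wild type in both assays in each mutant. At 15 °C TPS1 footprints were at 10.69 in wild type and 10.04 in ded1-cs, and its mRNA at 8.0 and 7.6. In ded1-ts TPS1 footprints were at 12.29 in wild type and 11.82 in ded1-ts, and its mRNA at 10.1 and 10.07. For tif1-ts at 30 °C TPS1 footprints were at 10.47 in wild type and 9.86 in tif1-ts, and its mRNA at 9.4 and 8.8, and at 37 °C footprints were at 10.94 in wild type and 10.79 in tif1-ts, and its mRNA at 9.2 and 8.6. Its footprint differences were −0.65, −0.48, −0.60 and −0.15 in the authors' deposited tables, none of them 2-fold. TPS2 was the one trehalose gene with mRNA at least 2-fold lower in ded1-cs. At 15 °C TPS2 footprints were at 12.01 in wild type and 10.8 in ded1-cs, and its mRNA at 10.2 and 8.9. In ded1-ts TPS2 footprints were at 11.68 in wild type and 11.41 in ded1-ts, and its mRNA at 10.3 and 10.08. With tif1-ts at 30 °C TPS2 footprints were at 10.02 in wild type and 9.85 in tif1-ts, and its mRNA at 10.4 and 9.7, and at 37 °C footprints were at 10.48 in wild type and 10.53 in tif1-ts, and its mRNA at 9.9 and 9.2. TPS2 TE differed by 0.16, −0.04, 0.50 and 0.76 in the authors' deposited tables.

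The regulatory subunits had level mRNA and lower footprints in ded1-cs. TSL1 mRNA was at 7.5 in both strains at 15 °C while its footprints were at 10.39 and 9.69. TPS3 mRNA was at 8.3 in both strains and its footprints at 9.86 and 9.15. In ded1-ts TSL1 footprints were at 12.29 in wild type and 12.22 in ded1-ts, and its mRNA at 10.1 and 10.04. At 30 °C in tif1-ts TSL1 footprints were at 10.12 in wild type and 10.35 in tif1-ts, and its mRNA at 10.1 and 9.7, and at 37 °C footprints were at 11.34 in wild type and 11.55 in tif1-ts, and its mRNA at 9.7 and 9.5. NTH1, the neutral trehalase that breaks the sugar down, was one of 2 members, with HSP31, whose mRNA was above wild type in all 4 comparisons. It differed by 0.13, 0.80, 0.13 and 0.27 in the authors' deposited tables. In ded1-ts NTH1 footprints were at 11.01 in wild type and 12.09 in ded1-ts, and its mRNA at 10.4 and 11.19, a footprint difference of 1.09 in the authors' deposited table.

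TPS3 footprints stood at 9.86 and 9.15 in the ded1-cs table, 10.72 and 10.46 in the ded1-ts table, and 9.15 and 9.04 at 30 °C and 9.27 and 9.13 at 37 °C in the tif1-ts tables. TPS3 mRNA stood at 8.3 and 8.3, 9.5 and 9.76, 8.6 and 8.5, and 8.1 and 7.9 in the same order. TPS3 footprints were below wild type each time, and its mRNA was higher in ded1-ts. NTH1 footprints stood at 9.54 and 9.11 in the ded1-cs table, 11.01 and 12.09 in the ded1-ts table, and 9.12 and 9.11 at 30 °C and 9.73 and 10.14 at 37 °C in the tif1-ts tables. NTH1 mRNA stood at 8.9 and 9.0, 10.4 and 11.19, 8.9 and 9.0, and 9.2 and 9.5 in the same order. NTH1 mRNA was above wild type each time while its footprints went both ways.

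The 6 glycogen genes had the lowest median footprint difference of the role groups in ded1-cs, −1.35. Footprints of 5 of the 6 were at least 2-fold lower, against 16.4% of all genes. All genes of 2000 bases or more had a median footprint difference of −0.37 there. The median TE difference of the 6 was −0.63 in ded1-cs and −0.21 in ded1-ts, and for tif1-ts it was 0.07 at 30 °C and 0.20 at 37 °C. GSY1 and GSY2 encode glycogen synthases, GPH1 glycogen phosphorylase, GLC3 the branching enzyme, GDB1 the debranching enzyme and PGM2 phosphoglucomutase. GPH1 had the lowest footprint difference of any member in ded1-cs. At 15 °C GPH1 footprints were at 10.73 in wild type and 7.68 in ded1-cs, and its mRNA at 8.9 and 7.2. The differences were −1.72 for mRNA and −3.05 for footprints in the authors' deposited table. For ded1-ts GPH1 footprints were at 11.15 in wild type and 10.78 in ded1-ts, and its mRNA at 9.0 and 9.22. For tif1-ts at 30 °C GPH1 footprints were at 9.15 in wild type and 8.53 in tif1-ts, and its mRNA at 8.2 and 7.3, and at 37 °C footprints were at 9.26 in wild type and 8.46 in tif1-ts, and its mRNA at 8.1 and 6.6. At 37 °C mRNA differed by −1.52 and footprints by −0.80 in the authors' deposited table, so TE was 0.73 higher there.

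GSY1 lay below wild type in both assays in all 4 comparisons, though its 30 °C footprints were nearly level. At 15 °C GSY1 footprints were at 8.98 in wild type and 6.41 in ded1-cs, and its mRNA at 7.4 and 6.2. In ded1-ts GSY1 footprints were at 8.13 in wild type and 6.51 in ded1-ts, and its mRNA at 7.2 and 6.27. With tif1-ts at 30 °C GSY1 footprints were at 7.03 in wild type and 6.98 in tif1-ts, and its mRNA at 7.7 and 7.3, and at 37 °C footprints were at 6.46 in wild type and 5.04 in tif1-ts, and its mRNA at 6.4 and 4.6. The footprint differences were −2.57, −1.62, −0.05 and −1.42 in the authors' deposited tables, and GSY1 was the single member at least 2-fold lower in footprints in tif1-ts at 37 °C. Its TE difference in ded1-cs, −1.41 in the authors' deposited table, was the lowest of the members. GSY2, the more abundant synthase per coding length in every group, was at least 2-fold lower in footprints in ded1-cs alone among the 4 comparisons. At 15 °C GSY2 footprints were at 9.75 in wild type and 8.43 in ded1-cs, and its mRNA at 9.0 and 8.3. In ded1-ts GSY2 footprints were at 11.09 in wild type and 10.88 in ded1-ts, and its mRNA at 10 and 10.08. At 30 °C in tif1-ts GSY2 footprints were at 8.98 in wild type and 8.65 in tif1-ts, and its mRNA at 9.5 and 9.1, and at 37 °C footprints were at 9.32 in wild type and 8.99 in tif1-ts, and its mRNA at 9.2 and 8.8. The pair shares sequence, and how reads that match both were counted was not stated in the labels. GDB1 was lower in ded1-cs and higher in ded1-ts, with footprint differences of −1.22 and 1.15 in the authors' deposited tables. PGM2 footprints were lower by more than 2-fold in ded1-cs, −1.39 in the authors' deposited table, and GLC3 footprints at −0.999 lay at the 2-fold mark.

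GLC3 footprints stood at 9.20 and 8.2 in the ded1-cs table, 8.24 and 8.76 in the ded1-ts table, and 6.63 and 7.01 at 30 °C and 7.22 and 6.76 at 37 °C in the tif1-ts tables. GLC3 mRNA stood at 7.5 and 6.3, 7.2 and 7.74, 6.7 and 7.5, and 6.6 and 6.2 in the same order. GLC3 was lower in both assays in ded1-cs and higher in both in ded1-ts and in tif1-ts at 30 °C. PGM2 footprints stood at 9.60 and 8.22 in the ded1-cs table, 10.84 and 10.9 in the ded1-ts table, and 8.87 and 8.22 at 30 °C and 9.83 and 9.01 at 37 °C in the tif1-ts tables. PGM2 mRNA stood at 7.9 and 6.7, 9.1 and 9.3, 8.5 and 7.9, and 8.1 and 7.1 in the same order. PGM2 was lower in both assays in ded1-cs and in tif1-ts at both temperatures, and close to wild type in ded1-ts.

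GPD1 encodes the glycerol-3-phosphate dehydrogenase that osmotic stress induces, and GPD2 its paralogue that redox imbalance induces. GPD1 lay below wild type in both assays in every mutant group, though its 30 °C footprints were nearly level. At 15 °C GPD1 footprints were at 12.58 in wild type and 11.12 in ded1-cs, and its mRNA at 10.6 and 8.2. In ded1-ts GPD1 footprints were at 12.93 in wild type and 11.77 in ded1-ts, and its mRNA at 9.6 and 8.88. For tif1-ts at 30 °C GPD1 footprints were at 10.43 in wild type and 10.39 in tif1-ts, and its mRNA at 8.9 and 8.6, and at 37 °C footprints were at 11.52 in wild type and 10.98 in tif1-ts, and its mRNA at 8.9 and 7.7. GPD1 mRNA differed by −2.38, −0.76, −0.32 and −1.12 in the authors' deposited tables, and footprints by −1.46, −1.16, −0.05 and −0.54. GPD2 did not share the low mRNA of ded1-cs. At 15 °C GPD2 footprints were at 11.09 in wild type and 11.47 in ded1-cs, and its mRNA at 9.8 and 9.4. Per coding length (log2 per kb), GPD1 mRNA exceeded GPD2 mRNA by 0.97 in wild type at 15 °C and lay below it, at −1.03, in ded1-cs. GPM2, a relative of phosphoglycerate mutase, had mRNA differences below 0 in all 4 comparisons, from −1.502 in ded1-cs to −0.32 in ded1-ts in the authors' deposited tables, and TE differences above 0 in all 4.

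The 11 redox genes past the floor had higher TE in the mutants with 1 exception, though mostly under 2-fold. Their median TE difference was 0.79 in ded1-cs and 0.69 in ded1-ts, and for tif1-ts it was 0.53 at 30 °C and 0.94 at 37 °C. It was above 0 for 11 of 11 genes in each comparison except tif1-ts at 30 °C, where TSA2 was below 0 at −0.19 in the authors' deposited table. In the same order, TE was above 0 for 2618 of 4855, 2988 of 5238, 2640 of 4833 and 2712 of 4854 genes in all. Of all genes of under 600 bases, it was above 0 for 492 of 628, 598 of 734, 434 of 604 and 508 of 606. The median mRNA difference of the redox genes was −0.41, −0.26, −0.62 and −0.57 in the same order, and the median footprint difference 0.35, 0.51, −0.07 and 0.30. Single genes differed from these medians. In ded1-ts, GRX2, TRX2 and SOD2 had lower mRNA with higher footprints, CTT1, GRX1, PRX1 and TSA2 were higher in both assays, and TRX1, SOD1, AHP1 and TSA1 were lower in both.

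SOD1, the cytosolic copper and zinc superoxide dismutase, had the highest TE difference of the redox genes in ded1-cs and in tif1-ts at 37 °C. At 15 °C SOD1 footprints were at 11.93 in wild type and 12.78 in ded1-cs, and its mRNA at 11.5 and 10.9. In ded1-ts SOD1 footprints were at 13.22 in wild type and 13.02 in ded1-ts, and its mRNA at 12.1 and 10.85. With tif1-ts at 30 °C SOD1 footprints were at 11.31 in wild type and 11.06 in tif1-ts, and its mRNA at 10.7 and 10.1, and at 37 °C footprints were at 11.09 in wild type and 11.73 in tif1-ts, and its mRNA at 10.8 and 10. SOD1 mRNA was lower in each mutant, with differences of −0.62, −1.21, −0.61 and −0.78 in the authors' deposited tables. TE was higher, by 1.46, 1.01, 0.37 and 1.42 in the same tables. SOD2, the mitochondrial manganese enzyme, had TE differences of 0.23, 0.55, 0.05 and 0.69 there, all above 0 and none 2-fold.

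The peroxiredoxins AHP1 and TSA1 had the highest footprint levels per coding length of the redox genes in every wild-type group, while SOD1 mRNA was above TSA1 mRNA. At 15 °C AHP1 footprints were at 13.47 in wild type and 13.78 in ded1-cs, and its mRNA at 11.8 and 11.3. In ded1-ts AHP1 footprints were at 14.33 in wild type and 14.02 in ded1-ts, and its mRNA at 12.3 and 11.26. At 30 °C in tif1-ts AHP1 footprints were at 13.28 in wild type and 12.92 in tif1-ts, and its mRNA at 11.6 and 10.8, and at 37 °C footprints were at 12.91 in wild type and 13.16 in tif1-ts, and its mRNA at 11.5 and 10.7. AHP1 TE differed by 0.79, 0.69, 0.45 and 1.04 in the authors' deposited tables, 2-fold in the last alone. At 15 °C TSA1 footprints were at 12.58 in wild type and 13.59 in ded1-cs, and its mRNA at 10.7 and 10.8. With HSP31 it was one of 2 members with footprints at least 2-fold higher in ded1-cs. Both lay just past that mark, and relative to the median of all genes 0 members reached it. In ded1-ts TSA1 footprints were at 13.85 in wild type and 13.65 in ded1-ts, and its mRNA at 11.9 and 11.09. For tif1-ts at 30 °C TSA1 footprints were at 12.44 in wild type and 12.29 in tif1-ts, and its mRNA at 10.5 and 9.8, and at 37 °C footprints were at 12.29 in wild type and 12.08 in tif1-ts, and its mRNA at 10.4 and 9.4. In those 3 comparisons TSA1 mRNA and footprints were both lower in the mutant, footprints by less. TSA2, its stress-induced paralogue, had far lower levels, and its footprints stood between 5.72 and 8.22 in the 4 wild-type groups. PRX1, the mitochondrial peroxiredoxin, had footprints above wild type in all 4 comparisons, with the largest difference in ded1-ts, 1.38 in the authors' deposited table.

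The thioredoxins TRX1 and TRX2 and the glutaredoxins GRX1 and GRX2 had TE differences above 0 in all 4 comparisons. At 15 °C TRX2 footprints were at 10.36 in wild type and 11.01 in ded1-cs, and its mRNA at 10 and 9.7. In ded1-ts TRX2 footprints were at 11.76 in wild type and 12.28 in ded1-ts, and its mRNA at 10.4 and 10.23. With tif1-ts at 30 °C TRX2 footprints were at 9.97 in wild type and 9.75 in tif1-ts, and its mRNA at 9.3 and 8.5, and at 37 °C footprints were at 9.84 in wild type and 10.13 in tif1-ts, and its mRNA at 9.6 and 8.6. TRX2 TE differed by 1.02, 0.70, 0.55 and 1.27 in the authors' deposited tables. In ded1-ts and in tif1-ts at 37 °C, 5 members each had mRNA at least 2-fold lower, against 2.58% and 3.23% of all genes. TRX1 was the single member in both sets, and the overlap over all genes is not given here. TRX1 mRNA differed by −1.10 and −1.08 in the authors' deposited tables, and its footprints by −0.19 and −0.13. GRX1 had the highest redox TE difference but for SOD1 in ded1-cs, 1.35 in the authors' deposited table, and GRX2 reached 1.21 in tif1-ts at 37 °C.

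CTT1, the cytosolic catalase, had lower mRNA in ded1-cs than in wild type, like most stress markers. At 15 °C CTT1 footprints were at 9.81 in wild type and 8.04 in ded1-cs, and its mRNA at 8.4 and 6.5. In ded1-ts CTT1 footprints were at 8.5 in wild type and 9.78 in ded1-ts, and its mRNA at 8.3 and 9.12. At 30 °C in tif1-ts CTT1 footprints were at 7.04 in wild type and 7.06 in tif1-ts, and its mRNA at 7.6 and 6.8, and at 37 °C footprints were at 7.60 in wild type and 8.36 in tif1-ts, and its mRNA at 7.0 and 6.8. Both assays were more than 2-fold lower in ded1-cs, −1.89 for mRNA and −1.77 for footprints in the authors' deposited table. For ded1-ts both were higher, 0.85 and 1.29 in the authors' deposited table. For tif1-ts CTT1 mRNA was lower at both temperatures, while footprints were level at 30 °C and higher at 37 °C.

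TRX1 footprints stood at 9.87 and 10.82 in the ded1-cs table, 11.09 and 10.9 in the ded1-ts table, and 9.89 and 9.93 at 30 °C and 9.42 and 9.29 at 37 °C in the tif1-ts tables. TRX1 mRNA stood at 9.0 and 9.3, 10.1 and 8.96, 8.7 and 8.1, and 7.9 and 6.8 in the same order. TRX1 mRNA was higher in ded1-cs and lower elsewhere. GRX1 footprints stood at 8.24 and 9.19 in the ded1-cs table, 10.66 and 11.43 in the ded1-ts table, and 8.48 and 8.8 at 30 °C and 9.12 and 9.76 at 37 °C in the tif1-ts tables. GRX1 mRNA stood at 7.3 and 6.9, 8.7 and 8.77, 6.9 and 6.6, and 7.5 and 7.2 in the same order. GRX1 footprints were higher in every mutant. GRX2 footprints stood at 9.24 and 9.24 in the ded1-cs table, 10.33 and 10.93 in the ded1-ts table, and 8.84 and 8.67 at 30 °C and 9.11 and 9.74 at 37 °C in the tif1-ts tables. GRX2 mRNA stood at 8.1 and 7.7, 8.7 and 8.26, 7.8 and 7.2, and 8.0 and 7.4 in the same order. GRX2 footprints were level in ded1-cs, slightly lower in tif1-ts at 30 °C and higher at 37 °C in both mutants. PRX1 footprints stood at 8.14 and 8.49 in the ded1-cs table, 10 and 11.38 in the ded1-ts table, and 7.69 and 8.29 at 30 °C and 8.20 and 8.32 at 37 °C in the tif1-ts tables. PRX1 mRNA stood at 7.7 and 7.2, 9.2 and 9.9, 7.6 and 7.5, and 7.9 and 7.3 in the same order. PRX1 footprints were higher in every mutant, and its mRNA was higher in ded1-ts alone.

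Members with a lower mRNA difference tended to have a lower footprint difference, but in tif1-ts the direction often differed. Of the members with an mRNA difference below 0 there, 12 of 32 at 30 °C and 17 of 31 at 37 °C had footprints above 0. Across the 41 members, the Pearson correlation of footprint with mRNA differences was 0.67 in ded1-cs and 0.75 in ded1-ts, and for tif1-ts it was 0.75 at 30 °C and 0.88 at 37 °C, against 0.12, 0.65, 0.55 and 0.51 over all genes. These are correlations across genes that share libraries, and genes are not independent replicates. The slopes of footprint on mRNA difference over the members were 0.81, 0.86, 0.93 and 1.18. The signs were the same in 33, 30, 27 and 24 of the 41 members. That is 80.5%, 73.2%, 65.9% and 58.5%, beside 49.7%, 73.3%, 68.2% and 67.6% of all genes. The footprint difference lay above the mRNA difference for 28, 30, 31 and 40 members, and for 2618 of 4855, 2988 of 5238, 2640 of 4833 and 2712 of 4854 genes in all. Of the members with mRNA at least 2-fold lower, 21 in ded1-cs, 5 in ded1-ts, and for tif1-ts 1 at 30 °C and 5 at 37 °C, footprints were also at least 2-fold lower for 13, 0, 0 and 1 in that order. Over all genes the same held for 43 of 99, 88 of 135, 24 of 50 and 79 of 157.

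**Figure D3:**
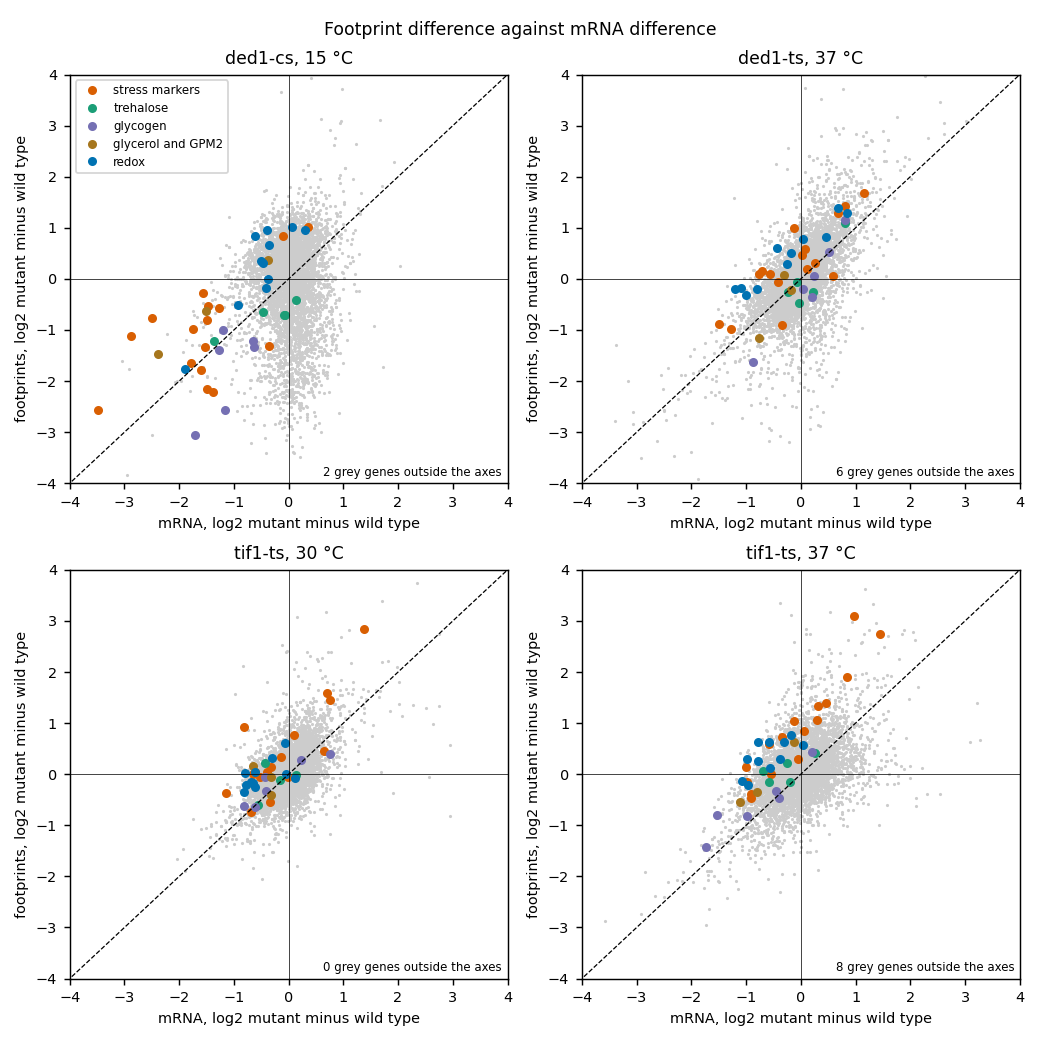
Footprint difference (vertical, log2 mutant minus wild type) against mRNA difference (horizontal, same scale) in each comparison; coloured points are the 41 members by role, grey points all genes past the floor, and the dashed line marks equal differences. Members lie mostly above the dashed line, 28, 30, 31 and 40 of 41 in the order of the panels.

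TE was above 0 in all 4 comparisons for 21 of the 41 members (51.2%), where 18.9% of all genes were, and below 0 in all 4 for 0 members, where 11.4% of all genes were. The 21 were the redox genes AHP1, GRX1, GRX2, TRX1, TRX2, SOD1, SOD2, PRX1, TSA1 and CTT1, the stress markers DDR2, HOR7, HSP12, HSP31, NQM1, OM45, PNC1, RTC3, SOL4 and YGP1, and GPM2. No trehalose or glycogen gene was among them. mRNA was below 0 in all 4 for 16 members (39.0%), against 16.8% of all genes. Footprints were above 0 in all 4 for GRX1, HSP31 and PRX1, which is 7.32% of the members beside 13.6% of all genes. They were below 0 in all 4 for 7 members (17.1%, beside 12.5% of all genes), namely GAD1, GPD1, GPH1, GSY1, GSY2, TPS1 and TPS3. The comparisons use different libraries, but 2 of them share both strains at different temperatures.

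Coding length differed between the roles and moved with TE. The members ranged from 180 to 4611 coding bases. Across the members, the Spearman correlation of TE difference with coding length was −0.73 in ded1-cs and −0.78 in ded1-ts, and for tif1-ts it was −0.43 at 30 °C and −0.68 at 37 °C, and −0.42, −0.35, −0.21 and −0.39 over all genes. The 12 members of under 600 bases, which include most thioredoxins, peroxiredoxins and short stress genes, had median TE differences of 0.96, 0.72, 0.54 and 0.99. All genes of that length had 0.60, 0.35, 0.25 and 0.41. The 20 members of 600 to under 2000 bases had 0.44, 0.42, 0.44 and 0.76, and all genes of that length 0.20, 0.09, 0.05 and 0.11. The 9 members of 2000 bases or more, trehalose and glycogen genes, had −0.61, −0.04, 0.09 and 0.23, against −0.53, −0.15, −0.06 and −0.22. In each length class and comparison the members' median lay above that of all genes of the class, except in ded1-cs for the long genes. The part of length in the differences between roles was not tested.

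**Figure D4:**
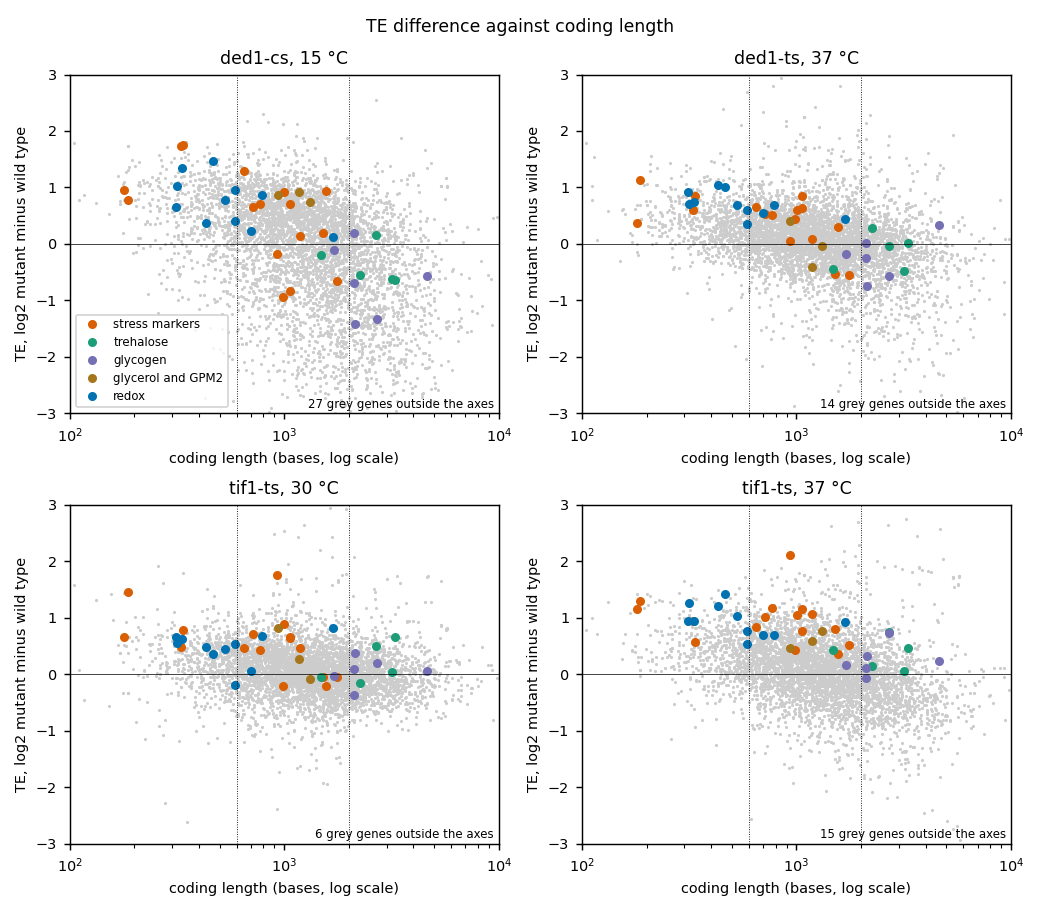
TE difference (vertical, log2 mutant minus wild type) against coding length in bases (horizontal, log scale) in each comparison; coloured points are the 41 members by role, grey points all genes past the floor, and dotted lines mark the limits of the length classes at 600 and 2000 bases. Short redox and stress genes lie above 0 and long trehalose and glycogen genes near or below it in ded1-cs.

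By the median, the TE level of the members was already above that of all genes in wild type. The median TE level of the members (footprint level minus mRNA level) was 1.14 at 15 °C and 1.29 at 37 °C in wild-type DED1, and 0.61 at 30 °C and 0.97 at 37 °C in wild-type TIF1, where all genes had medians of 0.02, 0.01, 0.01 and 0.02. In the mutants it was 1.54, 1.65, 0.88 and 1.73. The roles were uneven in wild-type TIF1 at 30 °C, where single members ran from −1.20 to 1.94. The medians there were 0.15 for glycogen, 0.22 for trehalose, 0.325 for stress markers, 1.04 for redox, and 1.23 for glycerol and GPM2. Among the 4822 genes common to all tables, the members' median footprint percentile was 86.3 in wild-type DED1 at 15 °C and 79.8 in ded1-cs, and the median mRNA percentile 73.2 and 51.9. In tif1-ts at 37 °C the footprint percentile was 90.5 against 86.7 in wild type, and the mRNA percentile 71.8 against 78.3. TIF1 strains were measured at both temperatures, in tables normalized separately. The footprint percentile was higher at 37 °C than at 30 °C for 36 of 41 members in wild type and for 38 in tif1-ts. The mRNA percentile was higher for 27 and 24.

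Other genes of the same pathways, taken from a list of names, were counted in the same way. Of 67 such genes past the floor in ded1-cs, mRNA was at least 2-fold lower for 11 and higher for 0, against 2.04% and 0.844% of all genes. TE was higher for 8 and lower for 12, against 8.63% and 17.4%. Of 86 in ded1-ts, TE was higher for 6 and lower for 3, against 4.18% and 4.64%. Of 73 in tif1-ts at 30 °C, TE was higher for 2 and lower for 1, against 2.34% and 1.14%. At 37 °C it was higher for 3 and lower for 1, against 5.27% and 3.19%. The 30 other redox genes had a median TE difference of 0.71 in ded1-cs, close to the 0.79 of the member redox genes. Elsewhere they lay further below the members. The 35 in ded1-ts had 0.29 beside 0.69. The 29 in tif1-ts had 0.12 beside 0.53 at 30 °C and 0.46 beside 0.94 at 37 °C. Among the stress genes of that list, SPI1, a cell wall protein, and HXK1, hexokinase, had the lowest mRNA differences in ded1-cs, −2.21 and −1.88 in the authors' deposited table. GSH1, which makes the glutathione precursor, and GLG1, the glycogen primer, had the lowest TE differences there, −2.95 and −2.81 in that table. OYE3, an NADPH oxidoreductase, and GTT2, a glutathione transferase, had the highest footprint differences in ded1-ts, 3.96 and 2.96 in the authors' deposited table. The lowest mRNA differences in tif1-ts at 37 °C were those of PGM1, the minor phosphoglucomutase, UGP1, which makes UDP-glucose for glycogen and trehalose, and HXK1. They were −1.63, −1.63 and −1.52 in the authors' deposited table. The regulators had a low median TE difference in ded1-cs. Of 12 measured there, 6 had TE at least 2-fold lower, against 17.4% of all genes. The median of the 12 was −1.20, beside 0.10 over all genes. All genes of 600 to under 2000 bases had a median of 0.20, and those of 2000 bases or more −0.53. The part of length in the regulators' TE was not tested. MSN2, a main transcription factor of the response, had a TE difference of −2.37 in the authors' deposited table, with footprints at 8.02 in wild type and 5.81 in the mutant and mRNA at 7.6 and 7.7. MSN4, its paralogue, had a TE difference of −0.08 in that table. SKN7, an oxidative stress transcription factor, and WHI2, needed for full activation of the response, had −2.41 and −2.23 there, and WHI2 and MSN4 were picked after their values were seen. In tif1-ts at 37 °C no regulator of 13 had TE 2-fold higher or lower, against 5.27% and 3.19% of all genes. The median of the 13 was 0.49.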

How the data were processed

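The 32 samples were 16 mRNA and 16 footprint libraries. The authors deposited 4 tables of log2 normalized abundance per gene, with 1 column per group and comparison columns with log2 values of mutant over wild type in each assay and in TE. Most mRNA levels were deposited to 1 decimal, so differences came from the authors' comparison columns. The annotation, the strand setting, the combining of replicates and the handling of reads that match several genes were all steps not given in the sources used here. Build sacCer2 and the tools DESeq, TopHat2 2.0.7, Bowtie2 2.0.6 and CASAVA 1.8 are named without roles, per the submitters' processing notes. Normalization within a table makes every difference relative to the other genes. Reads of the pairs ALD2 and ALD3, TSA1 and TSA2, GSY1 and GSY2, TRX1 and TRX2, GPD1 and GPD2, and GRX1 and GRX2 could be split by sequence likeness, so these genes are uncertain.

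Genes were kept whose mean abundance over the strains was at least 10 in both assays and whose footprint values did not stand for 0 reads. Differences of at least 2-fold were counted for the members and for all genes. Count tests had been planned, but the log2 columns hold no replicates, so there is no test. Footprint depth was estimated from the spacing of low values. Among genes of up to 10 reads, 41.7% (ded1-cs at 15 °C) to 100.0% lay within 0.1 read of a whole number, so the ded1-cs depth is the least certain. Counting errors cover counting alone, because PCR copies of a molecule were not marked. Coding lengths were taken from RefSeq's gene table (assembly R64), in which all 44 symbols were found. No coordinates or sequences are given, as no genome of the files' build was used.

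Members were named by rule. Every measured member may be named, and given in every group are 12 fixed members and, per comparison, those with the 3 highest and 3 lowest mRNA, footprint and TE differences. The members, lists and length classes were chosen with earlier results of these data known. The counting steps were tested on simulated data. Python 3.11.15, pandas 2.3.3, numpy 2.4.6, scipy 1.17.1 and matplotlib 3.10.9 were used. Alternatives tried were a floor of 100, a 1.5-fold threshold, differences relative to the median of all genes and differences recomputed from the level columns.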

Additional observations from a re-analysis of the deposited data

Results flagged for a closer look

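For 4 members the footprint difference had opposite signs in the DED1 mutants, at least 2-fold lower in ded1-cs at 15 °C and at least 2-fold higher in ded1-ts at 37 °C in the authors' deposited tables. NQM1 differed by −2.56 and 1.30. DCS2 differed by −2.22 and 1.44. GDB1 differed by −1.22 and 1.15, and CTT1 by −1.77 and 1.29. The difference between the mutants was not tested, since there is 1 value per group, and the allele and the temperature differ together between these comparisons and cannot be told apart.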

How the results depend on the processing

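Of 168 recomputed counts and medians of the members, 141 moved by less than 1.5 times or by less than their spread, 27 moved further and 0 turned direction. With a 1.5-fold threshold, which by construction admits more genes, ded1-cs had 7 members with higher footprints and 20 with higher and 8 with lower TE. In ded1-ts it gave 8 higher and 10 lower mRNAs, 5 lower footprints, and 15 higher and 1 lower TE. In tif1-ts at 30 °C it gave 5 higher and 16 lower mRNAs, 6 higher and 4 lower footprints and 14 higher TE. At 37 °C it gave 3 higher and 17 lower mRNAs, 14 higher and 3 lower footprints and 25 higher TE. Relative to the median of all genes, higher footprints in ded1-cs numbered 0, higher TE in ded1-ts 1 and higher mRNA in tif1-ts at 37 °C 2. With a floor of 100, which kept 32 members for tif1-ts at 30 °C and 37 at 37 °C, the 30 °C counts were 0 for higher mRNA, 1 for higher footprints and 0 for higher TE, and lower footprints at 37 °C numbered 0. In ded1-cs that floor kept 34 members, with a median mRNA difference of −0.62. Recomputed from the rounded level columns, tif1-ts at 37 °C had 2 higher and 9 lower mRNAs. No paired analysis was possible because the columns carry no replicate numbers, and leaving out replicates was not run for the same reason. mRNA depth is unknown, and the lowest footprint counts, in FMP45 and NQM1 at 30 °C and DCS2 in ded1-cs, are near 30 reads.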
